A study of Mus musculus with 9 samples.

Results

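Toll-like receptors are the cell-surface and endosomal sensors through which myeloid cells recognize microbial lipids and nucleic acids. At the surface, Cd14 encodes a co-receptor that delivers lipopolysaccharide to the complex of Tlr4 with Ly96 (MD-2), while Tlr2 recognizes bacterial lipopeptides as a partner of Tlr1 or of Tlr6. In endosomes, Tlr7 recognizes single-stranded RNA and Tlr9 recognizes DNA rich in unmethylated CpG. All of these receptors can signal through the adaptor encoded by Myd88, and Irak3 encodes IRAK-M, a kinase-like protein that restrains signaling below Myd88. These 10 genes were taken as a named list (Tlr1, Tlr2, Tlr4, Tlr6, Tlr7, Tlr9, Cd14, Ly96, Myd88 and Irak3), and a probe was assigned to a gene when its accession belonged to it. All 10 were on the array, among 16535 genes that could be named, and all 10 had at least 1 probe that passed the filter on dim probes. Of these genes, 9 had 1 probe each and Irak3 had 3.

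The samples were FDCPmix cells, a multipotent blood progenitor line of the mouse. The EV group was transduced with empty lentivirus, the Gata2 KD group with lentivirus carrying Gata2 shRNA and the Pu.1 KD group with lentivirus carrying Pu1 shRNA, each in self-renewal conditions, and the shRNA vector was Lentilox 3.7. After 5 days viable GFP+ cells were sorted, and 150 ng of their total RNA was labeled with Cy3 and hybridized, 1 sample per array, with 3 arrays in each of the 3 groups. All groups therefore shared the cell line, lentiviral transduction and the GFP sort, and no stimulus of a Toll-like receptor is named in the labels. The labels call the arrays triplicate samples without saying whether the transductions were separate, so p-values measure the spread between these samples. A level is the log2 intensity of a probe after subtraction of the 75th percentile of its array, and a change is a difference of group means on that log2 scale. Levels were not compared between genes, because probes differ in brightness.

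On an array, 80.4% to 89.6% of spots read well above background and no spot was saturated. EV replicate 3 stood somewhat apart from the other arrays, with a mean correlation to them of 0.960 against 0.971 or more for the rest, and values without it are given where they change a result. The 9 arrays lay on 3 slides that each held 1 array of every group. Gata2 fell by 1.61 in Gata2 KD (SE 0.23, adjusted p 0.00414) and Spi1, which encodes PU.1, fell by 1.73 in Pu.1 KD (SE 0.16, adjusted p 0.00178), both by limma with Benjamini-Hochberg adjusted p-values, and Spi1 was higher in Gata2 KD by 1.39 (SE 0.16, adjusted p 0.0012). Of 6 progenitor markers, 5 read above background on all 9 arrays, and Hoxa9 read above background on 2 of 3 EV arrays, 2 of 3 Gata2 KD arrays and 3 of 3 Pu.1 KD arrays.

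RefSeq promoter windows of the assembly GRCm38.p6, from 250 bases before to 50 bases after a start site, were at hand for 6 of the 10 genes (9 windows), and those for Tlr4, Tlr7, Cd14 and Ly96 were not used here. PU.1 is an ETS factor that binds purine-rich sites around GGAA, and GATA2 binds sites around GATA. The windows were searched on both strands for the ETS-type letters GGAAGTG, for the purine-rich letters GAGGAA, and for the GATA-type letters AGATAAG. Shown here, chosen after the values were seen, are the 4 windows that held a match, so that the letters near the start sites of Tlr2 and Tlr1, which differed between groups, can be read beside those of Tlr9, which did not pass the test in any comparison. Each runs 5′ to 3′ on the strand of the gene, with matches of either strand in capitals.
Tlr2 (chr3:83841559-83841858, minus strand): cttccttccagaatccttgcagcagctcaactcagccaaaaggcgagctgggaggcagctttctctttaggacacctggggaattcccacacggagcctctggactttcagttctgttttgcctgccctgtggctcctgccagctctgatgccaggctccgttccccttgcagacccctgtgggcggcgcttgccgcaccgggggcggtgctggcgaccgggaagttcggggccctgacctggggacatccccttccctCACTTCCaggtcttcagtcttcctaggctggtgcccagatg
Tlr1 (chr5:64933509-64933808, minus strand): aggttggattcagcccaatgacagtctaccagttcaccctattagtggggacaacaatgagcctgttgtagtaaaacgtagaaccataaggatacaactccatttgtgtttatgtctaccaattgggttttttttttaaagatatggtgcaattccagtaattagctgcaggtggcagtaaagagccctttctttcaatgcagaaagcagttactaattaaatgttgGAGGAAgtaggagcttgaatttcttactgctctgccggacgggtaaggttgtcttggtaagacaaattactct
Tlr9 (chr9:106222348-106222647, plus strand): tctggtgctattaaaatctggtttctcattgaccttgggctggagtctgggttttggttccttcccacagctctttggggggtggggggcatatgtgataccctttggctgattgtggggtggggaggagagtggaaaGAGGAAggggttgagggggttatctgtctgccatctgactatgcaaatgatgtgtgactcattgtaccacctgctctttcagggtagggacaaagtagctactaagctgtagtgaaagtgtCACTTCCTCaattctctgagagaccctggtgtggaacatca
Irak3 (chr10:120202081-120202380, minus strand): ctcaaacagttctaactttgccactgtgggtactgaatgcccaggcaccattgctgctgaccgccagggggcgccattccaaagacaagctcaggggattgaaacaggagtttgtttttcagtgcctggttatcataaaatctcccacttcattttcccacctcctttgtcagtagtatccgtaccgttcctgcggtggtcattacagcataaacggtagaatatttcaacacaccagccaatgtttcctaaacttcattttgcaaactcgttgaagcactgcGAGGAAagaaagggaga

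GGAAGTG matched on the opposite strand in the Tlr2 window and in the Tlr9 window, in each with its leftmost base at position 10 after the start site. In the Tlr9 window that match overlapped a GAGGAA match on the opposite strand at position 13, and a separate GAGGAA match lay 112 bases before the start site on the strand of the gene. The Tlr1 window held GAGGAA at 23 bases before the start site and the Irak3 window held it at position 34 after. In all, 2 of 9 windows held GGAAGTG, against 11% of 32851 promoter windows of the same length, and 3 of 9 held GAGGAA, against 28.3% of them. None of the 9 windows held AGATAAG, which was in 3.04% of all windows. The matches are a description of letters. They occurred in windows of Tlr2, Tlr1 and Irak3, which each passed the test in a comparison, and of Tlr9, which did not in any. No window of Tlr6, which passed the test between the knockdowns, held a match. The window of Myd88 and the other windows of Tlr1 and Irak3 held none either.

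In Gata2 KD, the lipopolysaccharide co-receptor Cd14 and the lipopeptide receptor Tlr2 rose by 8.99-fold and 5.88-fold against EV, and the RNA sensor Tlr7 rose by 2.86-fold from a dim level. None of the 10 genes fell. The other partners of Cd14, namely Tlr4 and Ly96, and the adaptor Myd88 differed from EV by 0.27, 0.15 and 0.21 on the log2 scale, none past the threshold. Thus 3 of the 10 genes were called higher, against 4.21% of the 15808 named genes tested, and 0 were called lower, against 2.95%. The groups did not overlap, with Gata2 KD above EV, for 6 of the 10 genes, against 9.5% of named genes. The median change of the 10 genes was 0.56, beside -0.09 over all named genes.

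In Pu.1 KD, none of the 10 genes passed the threshold against EV at its brightest tested probe, although 9 of them had a lower mean than in EV. Another probe of Irak3 passed the threshold and is described below. By limma with Benjamini-Hochberg adjustment, 0 of 10 were called, against 3.61% of named genes. At an unadjusted p under 0.05, 3 were lower (Tlr2, Cd14 and Irak3), against 8.38% of named genes, and 0 were higher, against 6.03%. The same 3 genes were the ones whose groups did not overlap, with Pu.1 KD below EV, against 11.9% of named genes. The median change of the 10 genes was -0.42, beside -0.04 over all named genes. Both comparisons use the same EV arrays, so their values are set side by side below and not counted as separate support for one another.

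**Figure D1:**
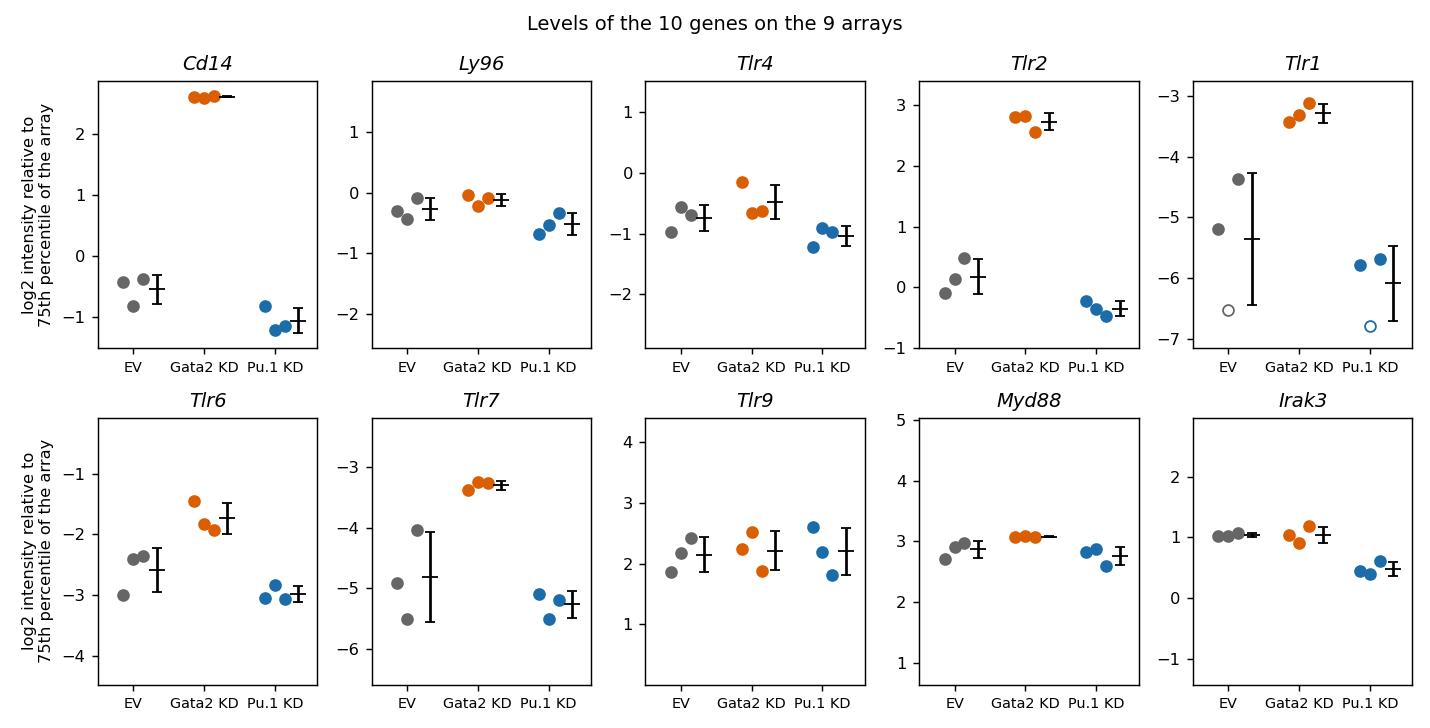
Each panel plots 1 gene, with the group on the x axis and the log2 level (array 75th percentile subtracted) on the y axis. Points are the 3 arrays of a group in replicate order from left to right, open where the probe was not well above background, and the bars show mean ± SD. All panels span at least the same range of log2 units but start at different levels. Cd14 and Tlr2 in Gata2 KD lie far above both other groups, while the 3 groups of Tlr9 overlap.

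Of the lipopolysaccharide receptor genes, Cd14 read -0.43, -0.82 and -0.39 in EV (replicates 1, 2 and 3). It read 2.62, 2.61 and 2.63 in Gata2 KD, and -0.83, -1.21 and -1.15 in Pu.1 KD. Every Gata2 KD array was thus far above every array of the other groups, whereas EV and Pu.1 KD nearly met, with nearest arrays of -0.82 and -0.83. The change in Gata2 KD was 3.17 (SE 0.17, adjusted p 2.76e-05, limma), and within the slides it ranged from 3.0 to 3.45. In Pu.1 KD the difference from EV was -0.52, with a 95% confidence interval of -0.90 to -0.14 before adjustment, and the adjusted p was 0.197. Its level in Gata2 KD exceeded that in Pu.1 KD by 3.69 (12.9-fold, adjusted p 5.21e-06), the largest difference among the 10 genes in that comparison.

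Tlr4, the receptor chain that signals in response to lipopolysaccharide, read -0.98, -0.56 and -0.69 in EV. Its levels were -0.15, -0.66 and -0.63 in Gata2 KD and -1.23, -0.91 and -0.98 in Pu.1 KD. The Gata2 KD and EV arrays overlapped, as did the Pu.1 KD and EV arrays. Against EV, the 95% confidence interval of the change ran from -0.17 to 0.71 in Gata2 KD and from -0.73 to 0.15 in Pu.1 KD, so a change of the size seen for Cd14 in Gata2 KD lay outside the interval for Tlr4. All 3 Gata2 KD arrays were above all 3 Pu.1 KD arrays, by 0.56 in the means, with an adjusted p of 0.137 that became 0.0422 with slide as a block. This difference stayed short of the threshold under 20 of 21 alternatives.

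Ly96 encodes MD-2, the protein that binds lipopolysaccharide beside Tlr4. Its levels were -0.30, -0.43 and -0.08 in EV, -0.05, -0.23 and -0.09 in Gata2 KD, and -0.68, -0.53 and -0.33 in Pu.1 KD. The arrays of each knockdown overlapped those of EV. The 95% confidence interval of the change was -0.20 to 0.50 in Gata2 KD and -0.59 to 0.11 in Pu.1 KD. Between the knockdowns the difference was 0.39 (adjusted p 0.202).

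Among the lipopeptide receptors, Tlr2 had a probe with 10 spots per array. It read -0.10, 0.14 and 0.47 in EV, 2.80, 2.82 and 2.56 in Gata2 KD, and -0.22, -0.37 and -0.47 in Pu.1 KD. As for Cd14, the 3 groups did not overlap, with Gata2 KD highest and Pu.1 KD lowest. The change in Gata2 KD was 2.56 (SE 0.18, adjusted p 8.84e-05), with within-slide differences of 2.34 to 2.66. The difference of Pu.1 KD from EV was -0.52 (95% confidence interval -0.93 to -0.12, adjusted p 0.226), and it passed the threshold in the values the authors deposited as a log2 table, where it was -0.50 (adjusted p 0.0491). Tlr2 was 8.45-fold higher in Gata2 KD than in Pu.1 KD, a log2 difference of 3.08 (adjusted p 1.63e-05).

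Tlr6, which pairs with Tlr2, read -3.01, -2.41 and -2.35 in EV. It read -1.44, -1.83 and -1.93 in Gata2 KD and -3.05, -2.83 and -3.07 in Pu.1 KD. All Gata2 KD arrays were above all EV arrays, and those of EV and Pu.1 KD overlapped. The difference of Gata2 KD from EV was 0.85 (SE 0.22, adjusted p 0.0687), which became an adjusted p of 0.0197 with slide as a block. With normexp background correction it was 0.55 (adjusted p 0.0424). This difference stayed short of the threshold under 18 of 21 alternatives, with adjusted p of up to 0.215, and passed it under 3. The Gata2 KD level exceeded the Pu.1 KD level by 1.25 (adjusted p 0.00734). Its difference of Pu.1 KD from EV was -0.39 (95% confidence interval -0.89 to 0.10).

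Tlr1, the other partner of Tlr2, was dim and was well above background on 2 of 3 EV arrays, 3 of 3 Gata2 KD arrays and 2 of 3 Pu.1 KD arrays. Its levels were -5.19, -6.52 and -4.36 in EV, -3.42, -3.31 and -3.11 in Gata2 KD, and -5.78, -6.80 and -5.69 in Pu.1 KD. The Gata2 KD arrays lay close together and above all others, and the EV arrays were spread widely. The difference of Gata2 KD from EV was 2.08 (SE 0.52, adjusted p 0.0638). It stayed short of the threshold under 12 of 20 alternatives, with adjusted p of up to 0.197. Under 8 the difference passed, among them slide as a block (adjusted p 0.0184). It was 2.57 without EV replicate 3 (adjusted p 0.0194), the highest of the EV arrays for this gene, and it was 0.63 with normexp background correction (adjusted p 0.0351) and 0.89 in the deposited log2 values (adjusted p 0.000669). Against Pu.1 KD, Tlr1 was higher in Gata2 KD by 2.80 (adjusted p 0.00999), and between Pu.1 KD and EV the arrays overlapped, with a difference of -0.73 (95% confidence interval -1.91 to 0.46).

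**Figure D2:**
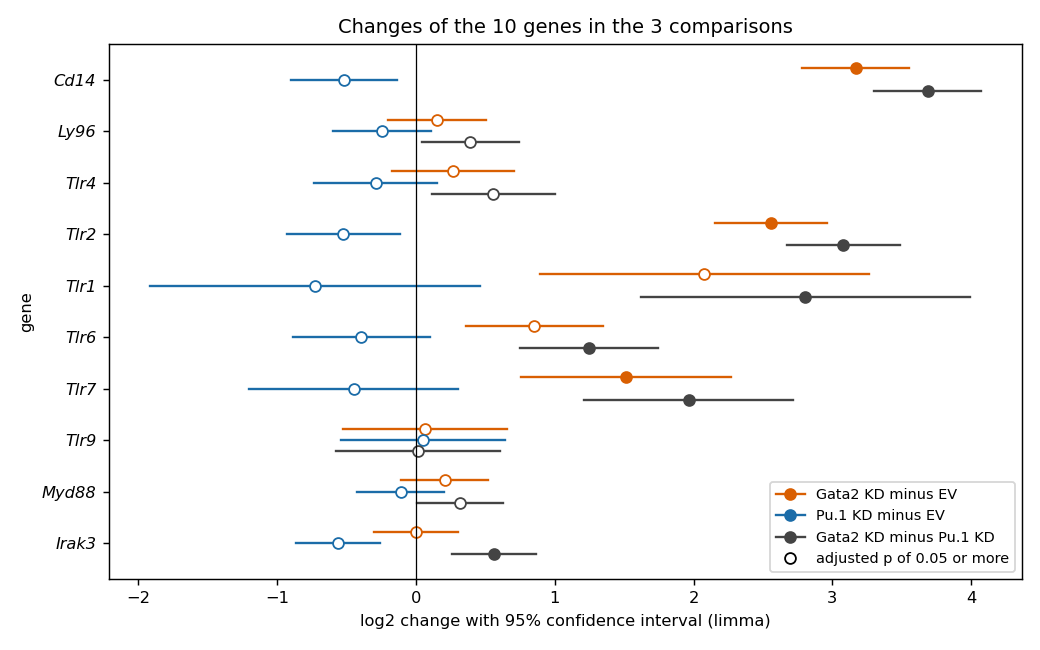
The x axis gives the log2 change of each of the 10 genes on the y axis, with the limma 95% confidence interval before adjustment as a line. Colors mark the 3 comparisons, and filled points have an adjusted p under 0.05. Cd14 and Tlr2 stand at 3.17 and 2.56 in Gata2 KD minus EV, no Pu.1 KD minus EV point is filled, and the intervals of Tlr1 and Tlr7 are among the widest.

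The endosomal receptors differed from each other. Tlr7 read -4.91, -5.50 and -4.03 in EV, -3.38, -3.24 and -3.27 in Gata2 KD, and -5.09, -5.51 and -5.19 in Pu.1 KD. Its Gata2 KD arrays were above all others, while EV and Pu.1 KD overlapped. The change in Gata2 KD was 1.51 (SE 0.33, adjusted p 0.0355), ranging from 0.79 to 2.12 within the slides. This call was the least firm of the 3. Its value without EV replicate 3 was 1.90 (adjusted p 0.00256), but it was no longer called without any 1 of the other 8 arrays, with only the groups compared in the fit (adjusted p 0.119), or with normexp background correction, where the change was 0.60 (adjusted p 0.0579). Between the knockdowns the difference was 1.96 (adjusted p 0.00622), and that of Pu.1 KD from EV was -0.45 (95% confidence interval -1.20 to 0.31).

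Tlr9 read 1.86, 2.17 and 2.42 in EV, 2.23, 2.53 and 1.88 in Gata2 KD, and 2.60, 2.19 and 1.82 in Pu.1 KD. The arrays followed the slides rather than the groups: on the slide where EV read 1.86, Gata2 KD and Pu.1 KD read 1.88 and 1.82, and on the slide where EV read 2.42 they read 2.53 and 2.60. Within the slides, Gata2 KD differed from EV by 0.02 to 0.11 and Pu.1 KD differed from EV by -0.04 to 0.18. The 95% confidence interval of the change, with slide not in the fit, was -0.52 to 0.66 in Gata2 KD and -0.54 to 0.64 in Pu.1 KD. The promoter windows printed above for Tlr2 and Tlr9 each held the GGAAGTG match at the same distance from the start site. The changes in Gata2 KD of these genes were 2.56 and 0.07, and any part of the match in them was not tested.

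Myd88, the shared adaptor, was measured with 10 spots per array and read 2.71, 2.91 and 2.98 in EV. Its levels were 3.07, 3.08 and 3.07 in Gata2 KD and 2.82, 2.87 and 2.59 in Pu.1 KD. The Gata2 KD arrays were above the EV arrays, but only by 0.21 in the means (adjusted p 0.64, 95% confidence interval -0.10 to 0.52). The difference of Pu.1 KD from EV was -0.11, and that between the knockdowns was 0.32 (adjusted p 0.263).

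At Irak3, the inhibitor, the larger difference from EV was in Pu.1 KD. Its brightest probe read 1.03, 1.02 and 1.07 in EV, 1.04, 0.91 and 1.18 in Gata2 KD, and 0.44, 0.39 and 0.62 in Pu.1 KD. The Pu.1 KD arrays were below all others, and EV and Gata2 KD overlapped. The difference of Pu.1 KD from EV was -0.56 (SE 0.13, adjusted p 0.0725), with within-slide differences of -0.64 to -0.41. The other probes of Irak3 differed by -0.69 (adjusted p 0.0399) and by -0.48 (adjusted p 0.429), so all 3 probes were lower, with no overlap of the groups, and 1 of 3 passed the threshold. With slide as a block the brightest probe passed it too. In Gata2 KD the changes of the 3 probes were 0.00, 0.21 and 0.04, none past the threshold. The Gata2 KD level of Irak3 exceeded the Pu.1 KD level by 0.56 (adjusted p 0.031), a call that held without EV replicate 3 and was lost without any 1 of the other 8 arrays.

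In the direct comparison of the knockdowns, 6 of the 10 genes were thus higher in Gata2 KD (Tlr1, Tlr2, Tlr6, Tlr7, Cd14 and Irak3), against 6.77% of named genes, and 0 were lower, against 5.6%. For 9 of the 10, all except Tlr9, the Gata2 KD arrays were all above the Pu.1 KD arrays, against 14.3% of named genes. The order of the group means was Gata2 KD, EV, Pu.1 KD for 9 of 10 genes, with neighbors in that order often within their spread. For Tlr9 it was Gata2 KD, Pu.1 KD, EV, with all groups overlapping. The share of named genes in the former order is not given here. The call of Irak3 apart, the other 5 calls held under every alternative in which the gene was tested, although normexp background correction gave smaller differences for the dimmer genes, of 0.72 for Tlr1, 0.73 for Tlr6 and 0.69 for Tlr7.

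The other genes of the pathway were described from lists of 72 genes, of which 65 were on the array and 64 were tested. Tlr5, Tlr11, Tlr12, Tlr13, Map3k8, Nfkb1 and Il12b had no probe assigned, and Tlr3, with probes well above background on at most 1 array, was not tested. In Gata2 KD, 20 of the 64 were called higher and 2 lower, against 4.21% and 2.95% of named genes. In Pu.1 KD, 1 was called higher and 7 lower, against 1.45% and 2.16%. Between the knockdowns, 28 were higher in Gata2 KD and 3 lower, against 6.77% and 5.6%. The median change of the 64 was 0.22 in Gata2 KD, -0.15 in Pu.1 KD and 0.43 between them.

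Among 11 tested pattern receptors and accessory proteins, 4 rose in Gata2 KD and none fell. The call of the smallest of these rises, of 0.55, was lost under 12 of 21 alternatives. The 4 included Lbp, which encodes the serum protein that passes lipopolysaccharide to Cd14, with a change of 2.39 (SE 0.13, adjusted p 3.13e-05). They also included Unc93b1, the chaperone that carries endosomal Toll-like receptors to their compartment, with a change of 2.29 (SE 0.16, adjusted p 8.29e-05). Unc93b1 read 0.83, 0.62 and 0.76 in EV, 3.02, 3.14 and 2.91 in Gata2 KD, and -0.18, -0.52 and -0.10 in Pu.1 KD. Its groups were fully separate, and in Pu.1 KD it fell by 1.00 (adjusted p 0.015). Nod1, a cytosolic sensor of bacterial cell-wall peptides, had the same order, with a rise of 2.69 in Gata2 KD (adjusted p 4.74e-05) and a fall of 1.07 in Pu.1 KD (adjusted p 0.0143). Unc93b1 and Nod1 were the 2 genes of this list called lower in Pu.1 KD, and each of these calls was lost under 5 of 21 alternatives. Between the knockdowns 6 of the 11 were higher in Gata2 KD, among them Cd180, a surface relative of Tlr4, which was above background on 3 of 3 EV and Gata2 KD arrays and on none in Pu.1 KD and was at least 3.68-fold higher in Gata2 KD (adjusted p 0.014). Here and below, such a bound sets the brighter group against the lowest level that read above background on the dimmer arrays. The call of Cd180 between the knockdowns was lost under 5 of 20 alternatives.

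Of 19 adaptors, kinases and ubiquitin ligases, 2 were called higher in Gata2 KD, namely Ikbke, a kinase that acts on interferon regulatory factors, by 2.67 (adjusted p 4.4e-05), and Irak2, by 1.15 (adjusted p 0.00277). The other 17 did not pass the threshold. In Pu.1 KD, Tab3, an adaptor of the kinase TAK1, fell by 1.03 (adjusted p 0.0244, and 0.0528 without EV replicate 3) and the other 18 were not called. The median change of this list was 0.03 in Gata2 KD and -0.05 in Pu.1 KD. Between the knockdowns 4 were higher in Gata2 KD and Tab2 was lower.

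Of 7 transcription factors of the pathway, 3 rose in Gata2 KD (Relb, Irf5 and Irf7) and none fell. Irf5, which drives inflammatory cytokine genes below Myd88, rose by 1.47 in Gata2 KD (adjusted p 0.000853). It fell by 0.94 in Pu.1 KD (adjusted p 0.0176), the only call of this list in Pu.1 KD. The call of the fall was lost under 8 of 21 alternatives and that of the rise under 0. Between the knockdowns the same 3 factors were higher in Gata2 KD.

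Of 12 negative regulators, 3 rose in Gata2 KD and 1, Socs1, fell by 0.85 (adjusted p 0.0167). The call of that fall was lost under 6 of 21 alternatives. Nfkbia, which encodes the NF-kappaB inhibitor alpha and is itself an NF-kappaB target, rose by 1.82 (adjusted p 0.000375). Cd300lf, an inhibitory myeloid receptor, rose by 2.10 in Gata2 KD (adjusted p 0.0034) and fell by 1.39 in Pu.1 KD (adjusted p 0.0437). Dusp1, a phosphatase that inactivates MAP kinases, fell by 1.15 in Pu.1 KD (adjusted p 0.0418) and differed by -0.15 in Gata2 KD. Without EV replicate 3 neither call in Pu.1 KD held, with adjusted p of 0.1 for Cd300lf and 0.0833 for Dusp1, and each was lost under 12 of 21 alternatives. Between the knockdowns 6 of the 12 were higher in Gata2 KD and Socs1 was lower.

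Of 15 cytokines, chemokines and other outputs of the pathway, 8 rose in Gata2 KD and 1 fell, with a median change of 1.20. The call of the smallest of these rises, of 1.13, was lost under 11 of 21 alternatives. Cxcl10, a chemokine of interferon and Toll-like receptor responses, was above background on none of the EV arrays, 3 of 3 Gata2 KD arrays and 1 of 3 Pu.1 KD arrays, and was at least 33.2-fold higher in Gata2 KD than in EV (adjusted p 7.49e-06). Its call as higher in Pu.1 KD than in EV (adjusted p 0.02) gave a bound of at least 1.08-fold. Il1rn, the interleukin-1 receptor antagonist, rose by 4.89 at its brighter probe (adjusted p 3.49e-06), while its other probe, above background on 1 of 3 EV arrays, differed by 0.96 (adjusted p 0.878). The chemokines Ccl5, Ccl4 and Cxcl2 rose by 2.80, 2.06 and 1.80 (adjusted p 9.73e-05, 0.0012 and 0.0078). Il6, an inflammatory cytokine, went the other way and fell by 2.10 in Gata2 KD (adjusted p 0.000446) and by 1.09 in Pu.1 KD (adjusted p 0.0266, and 0.0791 without EV replicate 3). Between the knockdowns 9 of the 15 were higher in Gata2 KD, among them Saa3, an acute-phase protein, by at least 5.95-fold (adjusted p 0.0381), and Il6 was lower. In that comparison the call of Saa3 was lost under 7 of 20 alternatives and that of Il6 under 6 of 21.

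**Figure D3:**
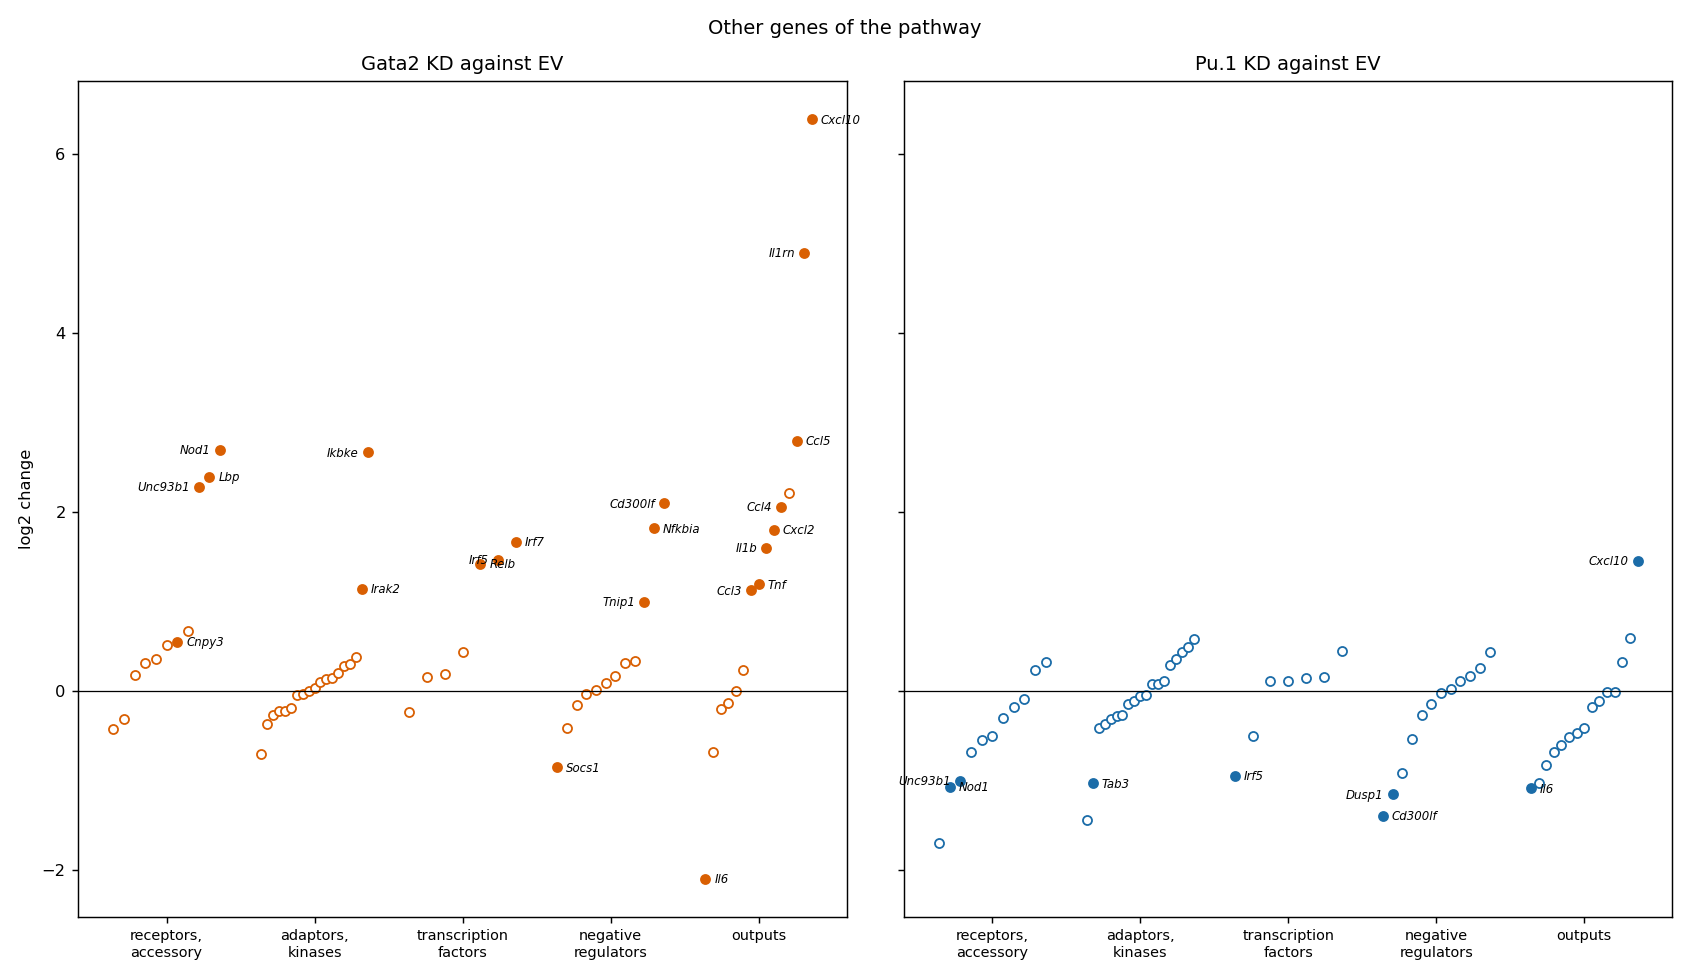
Each point is 1 of 64 other pathway genes, placed by its list on the x axis and ordered within the list by its log2 change on the y axis, for Gata2 KD against EV (left) and Pu.1 KD against EV (right). Filled, named points have an adjusted p under 0.05. In Gata2 KD, 20 named points lie above 0 and 2 below, and in Pu.1 KD 1 lies above and 7 below. The point of Cxcl10 is the fitted change, not the bound.

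The calls of pathway genes in Pu.1 KD depended on the setting. The number called was 8. More were called with normexp background correction (10), in a fit that took slide as a block (11), and with eBayes trend and robust settings or in the deposited log2 values (12 each). It was 3 with median scaling, 0 with only the groups compared in the fit, 0 without Pu.1 KD replicate 1 or 2, 1 without EV replicate 1, 2 without EV replicate 2 or Pu.1 KD replicate 3, 4 when EV replicate 3 was left out, and 5 when Gata2 KD replicate 2 or 3 was. Between the knockdowns the number was 31, and it was 20 without Gata2 KD replicate 2. The number called in Gata2 KD stayed between 19 and 25 under all alternatives.

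Neutrophil and eosinophil markers differed between the groups in the same order as most of these genes. Other myeloid lists did so in part or not at all. The counts of every list below stand beside the shares of named genes called. These were 4.21% higher and 2.95% lower in Gata2 KD, and 1.45% and 2.16% in Pu.1 KD. Of 11 neutrophil markers, 11 rose in Gata2 KD and 8 fell in Pu.1 KD. The mean level of this list was 0.94 to 1.00 on EV arrays, 3.64 to 3.84 on Gata2 KD arrays and -0.47 to -0.31 on Pu.1 KD arrays, and all 11 read above background on every array. Of 10 monocyte and macrophage markers, 6 rose in Gata2 KD and 2 fell in Pu.1 KD, with mean levels of -2.34 to -1.86, 0.30 to 0.36 and -2.77 to -2.30, so EV and Pu.1 KD overlapped. In Pu.1 KD, 4 of the 10 had a higher mean than in EV and 6 a lower one, with a median difference of -0.11. Of these markers, Mrc1 was above background on no EV array and no Pu.1 KD array, and the other 9 were above background on every array. The mean level of the 10 Toll-like receptor pathway genes was -1.0 to -0.50 in EV, 0.23 to 0.33 in Gata2 KD and -1.27 to -1.10 in Pu.1 KD, in the same order of groups. Of 6 eosinophil markers, 2 rose in Gata2 KD and 4 fell in Pu.1 KD, and the means of all 6 were higher than in EV in the former and lower in the latter. Their mean level was -2.26 to -1.72 on EV arrays. It was -0.995 to -0.777 on Gata2 KD arrays and -3.57 to -3.24 on Pu.1 KD arrays. The part of cell composition in the changes of these genes was not tested, and in RNA from bulk cells more cells of a type cannot be told apart from more RNA per cell.

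In the remaining lists the groups overlapped or stood in another order. Of 9 mast cell and basophil markers, 7 fell in Gata2 KD, and in Pu.1 KD 1 rose and 3 fell. None of 7 dendritic cell markers was called in either comparison, nor had any an unadjusted p under 0.05. Of 8 erythroid markers, 2 fell in Gata2 KD and 2 rose in Pu.1 KD, and of 7 megakaryocyte markers, 1 rose and 1 fell in Gata2 KD and 3 rose in Pu.1 KD. Of 6 progenitor markers, 2 rose and 1 fell in Gata2 KD, and 1 rose and 1 fell in Pu.1 KD. Of 6 B cell markers, 0 were called in Gata2 KD and 1 fell in Pu.1 KD, and of 5 T and NK cell markers, 1 rose in Gata2 KD and 1 fell in Pu.1 KD.

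**Figure D4:**
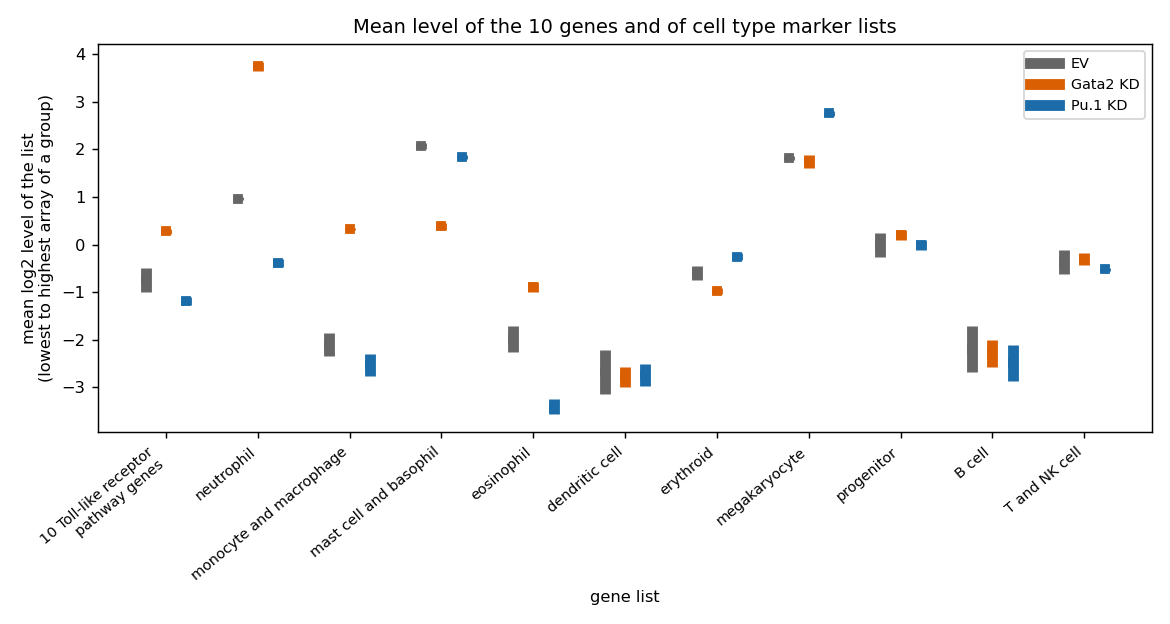
The x axis lists the 10 Toll-like receptor pathway genes and the 10 cell type marker lists, and the y axis gives the mean log2 level of a list, drawn as a bar from the lowest to the highest array of a group with a square at the middle of the bar. Levels of different lists are not comparable, and the groups are to be compared within a list. The 10 genes and the neutrophil, monocyte and macrophage, and eosinophil lists are highest in Gata2 KD and lowest in Pu.1 KD, with EV and Pu.1 KD overlapping in the monocyte and macrophage list, whereas the mast cell and basophil list is lowest in Gata2 KD.

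For the 6 genes past the threshold of a moderated F test over the 3 groups, the named genes with the most similar levels over the 9 arrays were listed by Pearson correlation among 15498 genes, as a description that mainly reflects the group means. Nearest to Cd14 were Fcgr4, Aldh3b1 and Hsd11b1 (0.999 each), and nearest to Tlr2 were Marchf1 (0.997), Chil1 (0.996) and Elane (0.995), the last encoding neutrophil elastase. Nearest to Tlr7 were Plbd1 (0.995), Gpr183 (0.994) and Cd28 (0.989). Tlr1 was nearest to Folr2 (0.988), to Tlr7 (0.987) and to Slc15a3 (0.983), which encodes an endolysosomal peptide transporter. Tlr6 was nearest to Birc3 (0.990), Pmaip1 (0.990) and Pld1 (0.985), and Irak3 to Gcat (0.972), Tnfaip8l1 (0.965) and Wdr4 (0.961). The 9 arrays fall into 3 groups, so these values carry no test.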

How the data were processed

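Total RNA of 9 samples was measured on Agilent whole mouse genome arrays with Cy3 only. The authors deposited 1 file per array from the scanner software Agilent Feature Extraction (version 10.1.1.1), with intensity values that are background-subtracted within the array and not normalized between arrays. A table of log2 values that the authors also deposited, with its processing not given in detail in the sources used here, served as an alternative. Groups and replicate numbers came from the sample titles.

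Outlier-flagged spots, 47 to 96 on an array, were left out, spots of a probe were averaged as log2 processed signal, and the 75th percentile of the array was subtracted. A probe was tested when well above background on at least 3 of 9 arrays with 2 or more values per group, which kept 36585 of 41174 probes. Unversioned accessions matched a RefSeq table (GRCm38.p6) for 23374 probes, or 16535 genes, and a gene was represented by its tested probe of highest mean (15808 genes). The design of the array uses another build, so no coordinates other than those of the promoter windows are given. Probe sequences were not used here, so cross-hybridization between related genes such as Tlr1 and Tlr6 was not examined.

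limma 3.58.1 (R 4.3.3) was used to compare the groups (group means over all 9 arrays, eBayes, two-sided, Benjamini-Hochberg over all tested probes, threshold 0.05), after the script was tested on simulated data. Confidence intervals are unadjusted, and the number of arrays limits the precision. A level not well above background in a group was used as a bound. The genes, the 5 pathway lists, the 10 marker lists and the tests were chosen with earlier results of these data known. All probes of the 10 genes are described, and of pathway genes those called were named, at most 12 per comparison by size, with the others by count. Irak2, Relb, Irf7, Socs1, Tab2 and Hsp90b1 were named beside that rule after their values were seen. Promoters were to be shown for genes called in opposite directions in both knockdowns. None of the 10 met this.

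Alternatives were the replicate number or the slide as a block, a normexp correction of the background (offset 50, on the median signal because the files hold no mean signal, chosen after the files were seen), quantile normalization, median scaling, outlier-flagged spots included, no filter on dim probes or one that required all 9 arrays, the mean of all probes of a gene, the log2 table that was deposited, a trended and robust eBayes, a fit to just the groups compared, and each array left out in turn.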

Additional observations from a re-analysis of the deposited data

How the results depend on the processing

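Over 30 changes (10 genes in 3 comparisons) and 627 alternative values, 578 kept their direction and their side of the threshold, 21 lost the call, 17 gained one and 11 turned direction, with neither value past the threshold. Of the last, the difference of Tlr9 between the knockdowns was -0.0279 with normexp background correction and -0.0383 in the deposited log2 values. The rest came from leaving out 1 array, which gave ranges of -0.18 to 0.21 for that difference, -0.0908 to 0.23 for Tlr9 in Gata2 KD, -0.15 to 0.24 for Tlr9 in Pu.1 KD and -0.0645 to 0.0686 for Irak3 in Gata2 KD. Cd14 and Tlr2 in Gata2 KD stayed called under all 21 alternatives, at 3.03 to 3.25 and 2.38 to 2.71. The number of the 10 genes called in Gata2 KD against EV rose from 3 to 5 with slide as a block, which added Tlr1 and Tlr6, and was 2 to 4 when 1 array was left out. In Pu.1 KD against EV it was 0, and it was 1 (Irak3) with slide as a block, with normexp background correction and with eBayes trend and robust settings, and 2 (Irak3 and Tlr2) in the deposited log2 values. Pathway genes called in Pu.1 KD numbered 8, and 11 with slide as a block, 10 with normexp background correction, 12 with eBayes trend and robust settings and in the deposited log2 values, 3 with median scaling, 0 with only the groups compared in the fit, and 0 to 7 when 1 array was left out. Between the knockdowns they numbered 31, and 20 with median scaling and 20 to 32 when 1 array was left out. The cause of these differences was not tested.

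Whether samples of the same replicate number were paired is not given in the labels. Deviations of same-numbered arrays correlated over 0.1 in 4 of 9 pairs (-0.55 to 0.65). These values cannot settle the pairing, because some of the pairs also shared a slide. With the replicate block, 4, 0 and 5 of the 10 genes were called in Gata2 KD, in Pu.1 KD and between the knockdowns, and 19, 0 and 24 pathway genes. Arrays of a slide deviated together in 8 of 9 pairs (-0.04 to 0.72).

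Over all probes, the counts called were 1902, 986 and 3524, and they ranged over the alternatives from 1072 to 2886, 223 to 1875 and 2206 to 5168. Median scaling moved the share of calls that were higher in Gata2 KD than in EV from 57.0% to 69.7%. Signal over background limits Tlr1 and Tlr7, the dimmest of the 10 genes.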
